A study of Saccharomyces cerevisiae with 24 samples.

Results

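The genes described here encode proteins of the yeast mitochondrial ribosome. They were taken by name alone: a row of the deposited expression table belongs to the group if it holds a locus tag whose standard gene name is MRPL, MRPS, MRP or RSM followed directly by a digit. This rule took 67 of the 5564 rows, each with a single locus tag. Of these, 38 encode proteins of the large subunit of the mitochondrial ribosome and 28 proteins of the small subunit. The remaining gene, MRP8, has the name but is not known as a component of the mitochondrial ribosome, so it is given apart from the other 66.

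The mitochondrial ribosome makes the few proteins encoded in mitochondrial DNA, most of which are core subunits of the respiratory chain and the ATP synthase. Nearly all of its own proteins are encoded in the nucleus, made on cytosolic ribosomes and imported. Footprints on these genes therefore come from cytosolic ribosomes that make mitochondrial ribosome parts. Their levels are relative to the other footprints of a library and are not rates of synthesis. The work of the finished mitochondrial ribosomes is not seen in these footprints. In budding yeast, the RNA-binding protein Puf3 binds many of these mRNAs and takes part in their decay.

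The study asked how translation inhibitors alter ribosome profiling (Ribo-seq), the sequencing of the mRNA fragments that ribosomes protect from nuclease. The 23 libraries used here came from Saccharomyces cerevisiae strain BY4741, a laboratory strain that the study describes as unable to make histidine, leucine and methionine. A series of doses of cycloheximide, a drug that blocks elongation on cytosolic ribosomes, was used on cells under oxidative stress, which had 30 min of peroxide at 0.2 mM (8 libraries), and on unstressed cells (8 libraries), all in YPD at 30 °C. Each set held no drug, x1/64, x1/16, x1/4, x1 (100 μg/ml), x8 and x100, with 2 libraries at x100 and 1 at every other dose. Heat shock (42 °C, 20 min) had 1 library without drug and 1 at x1. Cells in SD medium, a defined medium, had 1 library each after 20 min without amino acids, after 20 min with histidine, methionine and leucine as the only amino acids, and in complete SD. The medium without amino acids held only a nitrogen source and glucose, so it also lacked the other supplements of complete SD. Uracil was added back in some cases, not specified by library. Heat-shocked and amino acid-deprived cells were filtered and moved to new medium, a transfer not described for unstressed or complete SD cells. Edeine and aurintricarboxylic acid, inhibitors of initiation, were used on lysates of unstressed YPD cells with 1 library each. "No drug" refers to the medium, since the standard lysis buffer contained cycloheximide in all conditions. The only replicates are the x100 pairs, which per the study's methods came from independent treatments. The p-values of the comparison over all doses rest mainly on how far the difference between oxidative and unstressed cells varied across doses, and those at x100 on the spread within the x100 pairs.

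Expression is given in RPKM, reads scaled to gene length and library size, which allows genes to be compared per length. The depth of each library, recovered from the RPKM values, was 1.92 to 27.8 M reads. A member had a median of 252 reads per library, and 2 of the 1541 values rested on fewer than 10 reads, the lowest being 5 reads for RSM19 in the unstressed x1/64 library. Marker genes were nearly all higher under their own label, though not only there. All 10 peroxide response genes were higher with peroxide than without it (median log2 change 4.81, no drug), and all 9 measured heat shock genes were higher at 42 °C than at 30 °C (median 8.28). Of 9 amino acid synthesis genes, 8 were higher without amino acids than in complete SD (median 3.20) and 9 with histidine, methionine and leucine (median 2.78). The 9 heat shock genes were also all higher with peroxide (median 4.71, no drug) and without amino acids (median 3.22). Of the 10 peroxide response genes, 9 were higher at 42 °C (median 1.98, no drug). These lists are therefore not specific to 1 label each.

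Footprints on mitochondrial ribosomal protein genes spanned a 12.5-fold range, with most genes far closer together. The median of each gene over the 23 libraries was 12.0 to 150 RPKM for the 66 genes, with a median of 58.8 RPKM and a middle range of 44.3 to 82.6 RPKM. The large subunit had a median of 59.7 RPKM over its 38 genes and the small subunit 56.6 RPKM over its 28 genes. By the naming that marks ancestry, 27 of the 66 proteins are shared by ribosomes of all domains of life, 14 are shared with bacterial ribosomes, and 25 are particular to mitochondria, among which RSM22, listed without such a name, was counted. The medians of these classes were 54.0, 73.5 and 53.1 RPKM in this order. For comparison, 14 further mitochondrial ribosomal proteins with other names (IMG1, MNP1 and the like) had a median of 59.3 RPKM, and 95 rows of cytosolic ribosomal proteins had 826 RPKM.

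The highest levels among the 66 genes were those of MRPS12 (150 RPKM), MRPL39 (134 RPKM), MRP10 (125 RPKM) and MRP2 (124 RPKM), as medians over all 23 libraries. This order mixes conditions. In oxidative libraries MRPS12 (median 328 RPKM) was followed by MRP10 (249 RPKM), RSM18 (232 RPKM), MRPL39 (204 RPKM) and MRPL31 (203 RPKM). In unstressed libraries MRPS12 (134 RPKM) was followed by MRP2 (112 RPKM), MRPL39 (102 RPKM), MRPL31 (98.8 RPKM) and RSM27 (92.7 RPKM). MRPS12 encodes uS12m, a protein of the decoding centre. MRP10 encodes mS37, and MRPL39 and MRP2 encode bL33m and uS14m. The lowest levels were those of RSM22 (12.0 RPKM), RSM28 (29.2 RPKM), MRPL35 (33.3 RPKM), MRPL4 (33.6 RPKM) and RSM23 (33.8 RPKM). RSM22 is related to methyltransferases and RSM23, or mS29, is the yeast relative of the human GTP-binding protein DAP3. RSM22 was the lowest member in all 23 libraries, with 18.1, 21.9 and 30.7 RPKM (lowest, median and highest) in the 8 oxidative libraries and 9.37, 11.3 and 13.7 RPKM in the 8 unstressed ones. MRPS12 had 276, 328 and 436 RPKM in oxidative libraries and 94.8, 134 and 150 RPKM in unstressed ones. The oxidative and unstressed ranges did not overlap for either gene. MRPS12 and RSM19, which encodes uS19m, are neighbours on chromosome XIV and the only adjacent pair among the members.

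**Figure D1:**
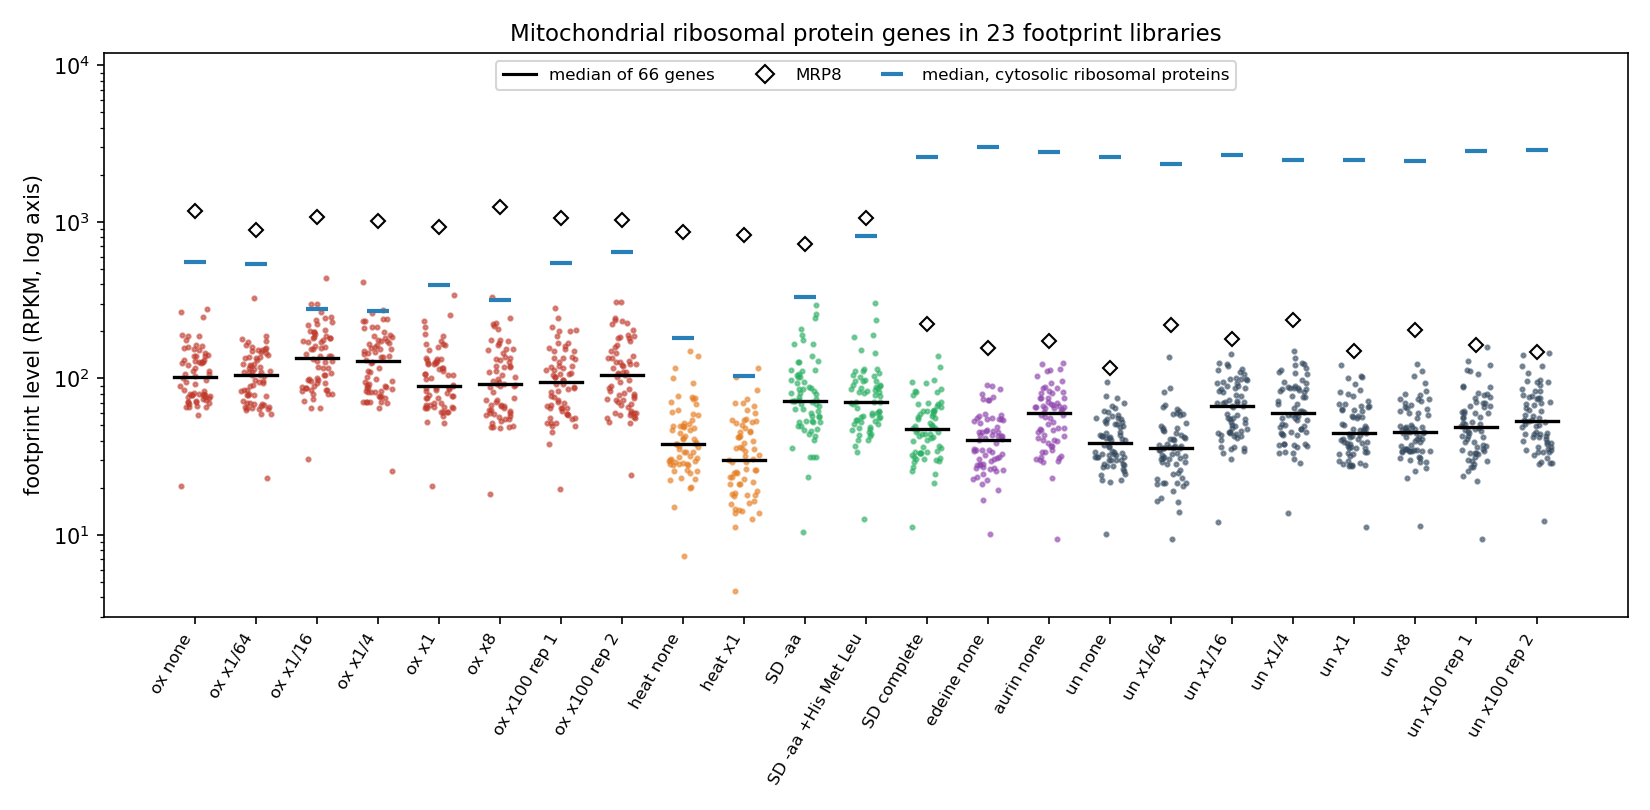
Footprint level of each member in each of the 23 libraries, in RPKM on a log axis; dots are the 66 genes, black bars their median, diamonds MRP8 and blue bars the median of 95 cytosolic ribosomal protein rows (ox, oxidative; un, unstressed; -aa, without amino acids). The median of the 66 genes lies between 90.0 and 136 RPKM in the oxidative libraries and between 35.7 and 66.6 RPKM in the unstressed ones, while the cytosolic ribosomal proteins lie far lower in the oxidative libraries than in the unstressed ones.

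Within the group, short genes had high levels. The members are 213 to 1887 nt long, with a median of 699 nt against 1236 nt for all rows. Across the 66 genes the Spearman correlation of level with length was between -0.87 and -0.39 in single libraries, with a median of -0.80. Across all genes it was between -0.37 and -0.24. The weakest relation among the members was that of the unstressed x1/64 library, in which the short genes RSM19 (13.99 RPKM), MRPL31 (28.3 RPKM) and MRP10 (31.4 RPKM) each had fewer than 20 reads. These are correlations across genes, which are not independent replicates and share the same library, and RPKM divides by length itself, so no test was made. The part of the way gene ends were treated in counting was not tested; low values were whole multiples of 1 read only after 98 to 101 nt were taken off each reading frame.

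**Figure D2:**
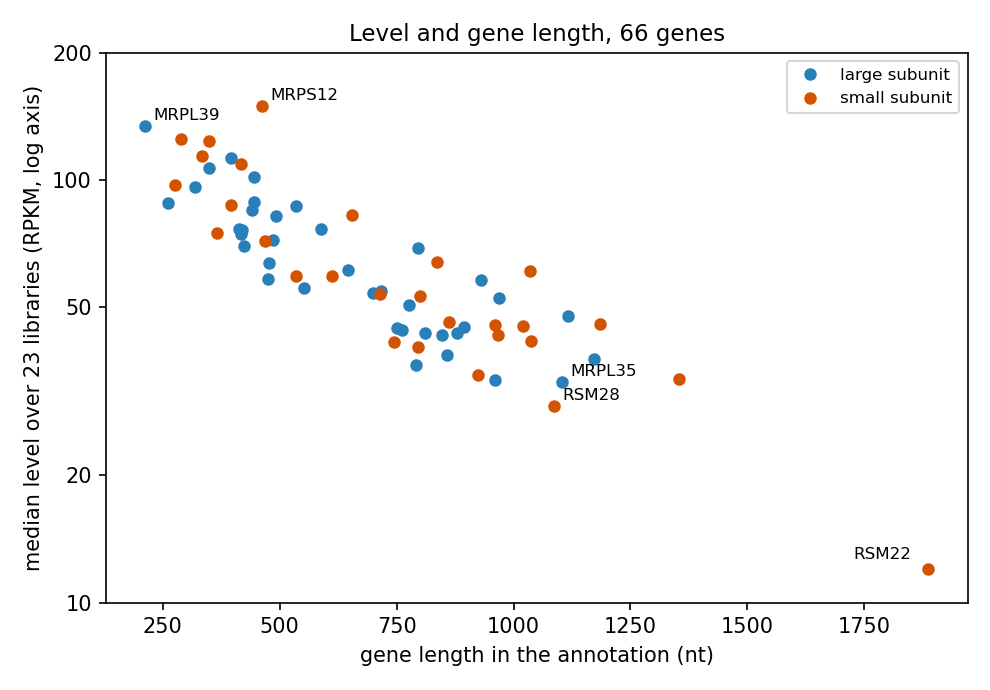
Median level over 23 libraries (RPKM, log axis) against gene length in the annotation (nt) for the 66 genes, coloured by subunit. MRPL39, the shortest gene with 213 nt, lies at 134 RPKM and RSM22, the longest with 1887 nt, at 12.0 RPKM.

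Under oxidative stress, footprints rose on every member. With the dose as a block, 67 of 67 members were higher in the 8 oxidative libraries than in the 8 unstressed ones (limma with Benjamini-Hochberg adjustment over 4352 genes, adjusted p between 1.12e-09 and 0.000189). Of all genes tested, 63.0% were called higher. The median log2 change of the members was 1.07, against 0.53 for all genes. The spread among the 66 genes was small, with an SD of 0.19 on the log2 scale against 1.43 for all genes, and the standard error of a single member was 0.07 to 0.24. The median was 1.07 for the 38 genes of the large subunit and 1.08 for the 28 genes of the small subunit. For the proteins shared by all domains, shared with bacteria and particular to mitochondria it was 1.05, 1.05 and 1.11.

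The oxidative and unstressed libraries were separated for nearly every member. In 64 of the 67 genes the lowest oxidative library was above the highest unstressed library, which held for 38.2% of all genes tested. The 3 exceptions were MRPL39, MRPL51 and RSM26. MRPL39 had 158, 204 and 308 RPKM (lowest, median and highest) in oxidative libraries and 47.9, 102 and 159 RPKM in unstressed ones. MRPL51, which encodes mL43, had 67.7, 98.2 and 134 RPKM in oxidative libraries and 41.2, 62.9 and 86.7 RPKM in unstressed ones. RSM26, or mS42, had 57.6, 65.3 and 97.4 RPKM in oxidative libraries and 16.2, 42.8 and 58.6 RPKM in unstressed ones. In these genes the ranges overlapped, yet at each of the 7 doses the oxidative library was the higher one. This held for all 67 members, compared with 57.1% of all genes tested.

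MRP10, the strongest of the 66 genes in this fit, had 179, 249 and 299 RPKM in oxidative libraries and 31.4, 89.3 and 123 RPKM in unstressed ones (log2 change 1.56 ± 0.14, SE, adjusted p = 2.66e-07, limma). Its protein carries disulfide bonds. RSM18, or bS18m, had 187, 232 and 298 RPKM in oxidative libraries and 45.1, 85.8 and 109 RPKM in unstressed ones (1.53 ± 0.10). For both genes the groups did not overlap. MRP35 (bL35m) had 146, 186 and 201 RPKM in oxidative libraries and 31.8, 66.3 and 107 RPKM in unstressed ones (1.43 ± 0.13). MRPL38 (uL14m) had 135, 151 and 212 RPKM in oxidative libraries and 35.7, 62.4 and 95.4 RPKM in unstressed ones (1.41 ± 0.11). These 2 genes were separated between the groups as well. MRP10, RSM18, MRP35 and MRPL38 each had their lowest unstressed value in the x1/64 library, on 12 reads for MRP10. Without the x1/64 libraries, a setting chosen after seeing the data, their log2 changes were 1.43, 1.46, 1.32 and 1.32 in this order. The smallest changes were those of MRPL51 (0.73 ± 0.08), MRPL11 (0.76 ± 0.08), MRPL15 (0.81 ± 0.07), RSM26 (0.83 ± 0.15) and MRPL7 (0.89 ± 0.12). MRPL11 encodes uL10m of the stalk base, MRPL15 encodes mL57, which is related to RNase III, and MRPL7 encodes uL5m. MRPL11 had 48.6, 65.1 and 71.5 RPKM in oxidative libraries and 29.9, 36.3 and 45.0 RPKM in unstressed ones, with no overlap. MRPL15 had 45.2, 62.6 and 79.5 RPKM in oxidative libraries and 25.7, 35.2 and 44.2 RPKM in unstressed ones, also with no overlap.

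**Figure D3:**
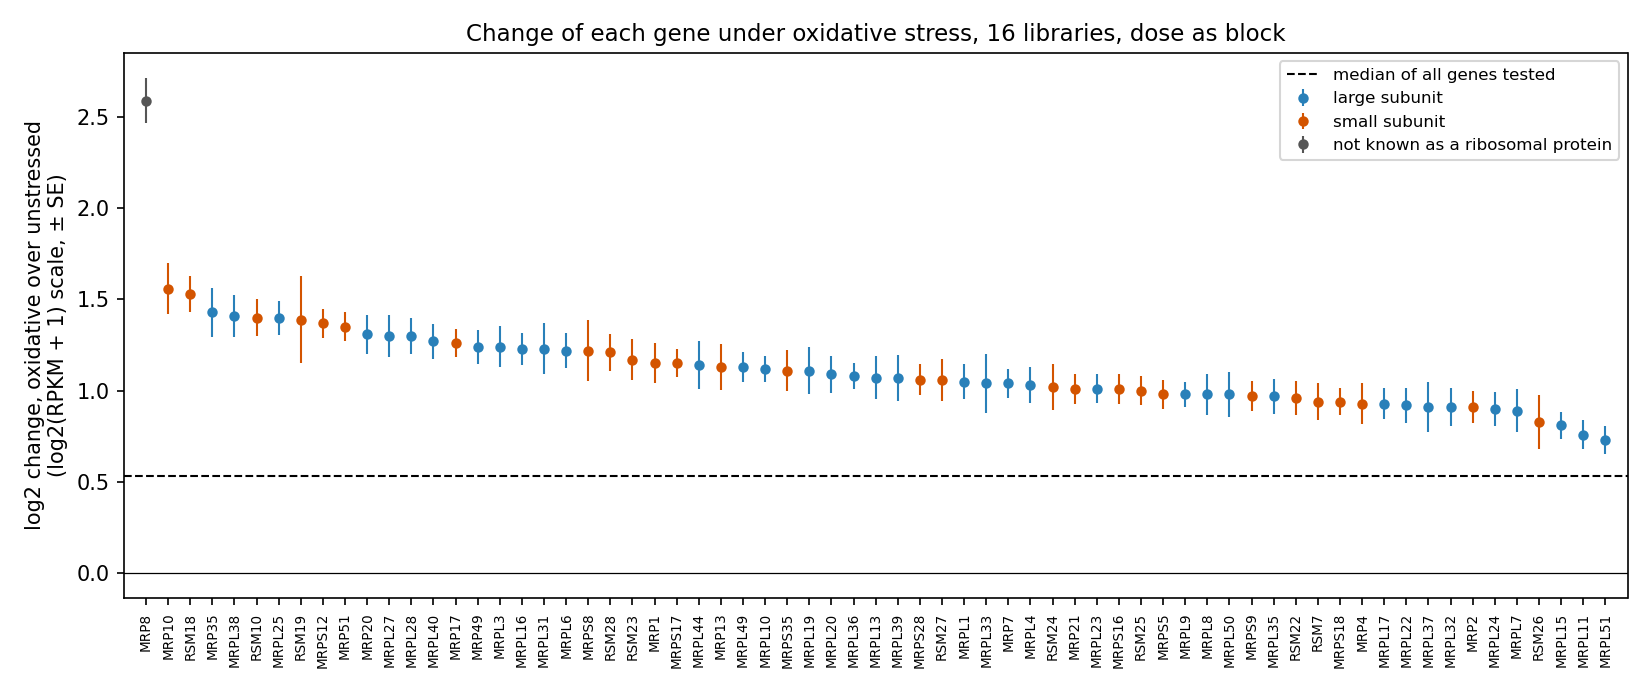
Log2 change of each of the 67 members, oxidative over unstressed, with its standard error (16 libraries, dose as block, log2(RPKM + 1) scale), coloured by subunit. All points lie above the dashed line at 0.53, the median of all genes, and MRP8 at 2.59 stands clear of the other 66, which end at 1.56.

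MRP8 had the largest change among the members. It had 882, 1040 and 1240 RPKM in oxidative libraries and 116, 171 and 235 RPKM in unstressed ones, with no overlap. Its log2 change was 2.59 ± 0.12 (adjusted p = 1.12e-09, limma), or 6.02-fold, and it ranked 226th of 4352 genes, whereas MRP10 ranked 621st. MRP8 was also high in other stresses, with 867 and 825 RPKM in the heat shock libraries without drug and at x1. It reached 724 RPKM without amino acids and 1060 RPKM with histidine, methionine and leucine, against 223 RPKM in complete SD. In the edeine and aurintricarboxylic acid libraries it had 156 and 172 RPKM.

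The RPKM scale is relative to the reads of a library, and other genes moved with the members. All 95 rows of cytosolic ribosomal proteins fell under oxidative stress (median log2 change -2.50). They held 4.2 to 9.5% of the summed RPKM in oxidative libraries and 32.1 to 35.2% in unstressed ones. When each library was scaled to equal summed RPKM outside these rows, an alternative chosen after seeing the data, 67 members were called higher, with a median of 0.63, and the median of all genes was 0.09. The calls over all genes were then 1911 higher and 1580 lower. With every library set to the same median gene (centring), 67 were called higher, with a median of 0.55 and a lowest value of 0.20. With centring, the calls over all genes were 1808 higher and 1788 lower, and without it 2742 higher and 993 lower. The part of the cytosolic ribosomal proteins in the change of the members was not tested beyond this. The median cytosolic ribosomal protein had 2.0 to 6.1 times the median RPKM of the 66 genes in oxidative libraries and 39.9 to 67.0 times in unstressed ones. No RNA libraries were used here, so changes in mRNA level and in translation cannot be told apart. The paper reports that cycloheximide in the medium raised footprints near the starts of reading frames, and more so under stress. It also describes a steep fall of initiation in acute stress. The part of either in the change of the members was not tested, so a higher RPKM is not a measured rise in synthesis.

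Other genes of mitochondrial gene expression rose as well. Many of them lay near the filter of 10 RPKM, and of the 10 aminoacyl-tRNA synthetases above it 9 averaged under 10 RPKM in unstressed cells, so that the oxidative libraries alone carried them past it. Counts are therefore given for all measured genes of each list without a filter, where 62.7% of all 5564 rows were called higher (limma) with a median log2 change of 0.52. All 14 further mitochondrial ribosomal proteins were called higher (median 1.23). So were 10 of 10 translation factors (median 1.30), among them MEF1 (1.48) and MEF2 (2.24), and 13 of 13 aminoacyl-tRNA synthetases (median 1.34). Of the translational activators, which aid the translation of single mitochondrial mRNAs, 17 of 17 were higher (median 1.08, lowest 0.31). Of 10 assembly factors, 9 were higher (median 1.01), and the exception, the rRNA methyltransferase MRM1, had a log2 change of 0.09. Of 35 nuclear-encoded respiratory chain genes, 34 were higher (median 1.00), and ATP18, which encodes a subunit of the ATP synthase, had a log2 change of 0.42 and missed the threshold. With the filter, which 1 of the 35 passed through the oxidative libraries alone, all 35 were called higher (63.0% of all genes tested). All 67 members averaged over 10 RPKM in oxidative and in unstressed libraries alike. Among the regulators, PUF3 had 72.7, 75.7 and 98.0 RPKM in oxidative libraries and 30.2, 38.9 and 47.7 RPKM in unstressed ones (log2 change 1.03 ± 0.08). HAP4, the activating subunit of a transcription factor of respiratory genes, had a log2 change of 1.43. FHL1 and IFH1, activators of cytosolic ribosomal protein genes, fell by 0.31 and 0.37 on the log2 scale. None of the mitochondrially encoded proteins had a row of its own. COX1 was found only in a joined row of 6 locus tags, with a median of 0.214 RPKM.

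At x100, the only dose with replicates, 67 of 67 members were again higher in the 2 oxidative libraries than in the 2 unstressed ones (limma over 4101 genes, adjusted p between 3.1e-05 and 0.0201). Of all genes tested at this dose, 55.3% were called higher. The median log2 change of the members was 0.88, against 0.48 for all genes. These 4 libraries are part of the 16, so the x100 values are no separate support. MRP8 had 1060 and 1030 RPKM in the oxidative libraries and 164 and 147 RPKM in the unstressed ones (log2 change 2.74 ± 0.11). The x100 libraries did not overlap for MRP8. RSM10, or uS10m, had 92.0 and 110 RPKM in the oxidative libraries and 34.9 and 44.7 RPKM in the unstressed ones (1.33 ± 0.17). MRP10 (1.32), MRPL25 (1.30) and RSM18 (1.27) followed. The smallest changes were those of RSM26 (0.56), MRPL37 (0.58), MRPL51 (0.58), MRPL7 (0.62) and MRPL24 (0.68). RSM26 had 62.1 and 58.0 RPKM in the oxidative libraries and 39.4 and 41.2 RPKM in the unstressed ones, again with no overlap. With centring, 40 of the 67 members were past the threshold at x100 (all genes 1297 higher and 1420 lower), and with scaling outside the cytosolic ribosomal proteins 52 were (all genes 1468 higher and 1175 lower). Without either, the calls over all genes were 2266 higher and 807 lower.

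**Figure D4:**
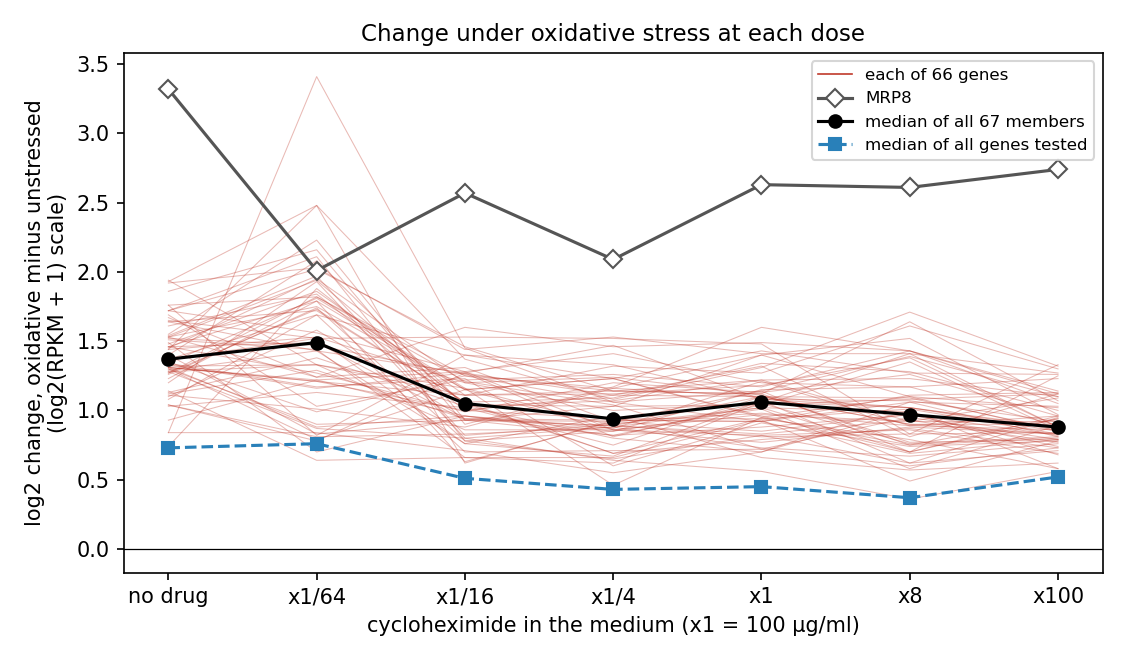
Log2 difference between the oxidative and the unstressed library at each cycloheximide dose (x100: means of 2), on the log2(RPKM + 1) scale; thin lines are the 66 genes, diamonds MRP8, black circles the median of the 67 members and blue squares the median of all genes tested. The members' median is 0.88 to 1.49 and stays above that of all genes, 0.37 to 0.76, at all 7 doses.

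The difference at single doses is a description, since most doses had 1 library of each kind. In order of dose from none to x100, the members' median log2 difference was 1.37, 1.49, 1.05, 0.94, 1.06, 0.97 and 0.88. The median of all genes was highest at x1/64 (0.76) and lowest at x8 (0.37). The oxidative and unstressed libraries were made with different primer sets at x1 and x8 and with the same set at the other 5 doses. With the doses of shared primer set alone, 67 members were called higher (of all 4385 genes, 2749 higher and 913 lower).

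Without centring, few members changed along the cycloheximide series. Per the study's methods, the x8 stock was made in DMSO. For x100, cells were collected by filtration and resuspended in a small volume before the drug was added. Dose and handling therefore cannot be told apart at these doses. In a fit of the 14 libraries with drug that also held terms for stress and for primer set, 5 of 67 members rose with the dose (4.30% of all genes tested) and 2 fell (19.5% of all genes tested). The risers were RSM19 (log2 change per 10-fold dose 0.30 ± 0.10), MRPL31 (0.27 ± 0.08), MRPL39 (0.26 ± 0.06), MRPL40 (0.15 ± 0.05) and MRP21 (0.14 ± 0.04), with adjusted p between 0.0105 and 0.0412 (limma). RSM7 (-0.15 ± 0.04, adjusted p = 0.0168) and MRPL15 (-0.11 ± 0.03, adjusted p = 0.0128) fell (limma). Over all genes 188 rose and 852 fell. With centring 19 members rose and 0 fell, and over all genes 534 rose and 458 fell. RSM19, MRPL31 and MRPL39 are among the shortest members, with 276, 396 and 213 nt. In the 7 unstressed libraries with drug, RSM19 had 13.99, 97.6, 110, 104 and 93.6 RPKM at x1/64, x1/16, x1/4, x1 and x8, and 78.6 and 83.4 RPKM at x100. Only the x1/64 value, resting on 5 reads, stood below the others. Without the x1/64 libraries, chosen after seeing the data, none of the 7 calls remained, but none of the 4333 genes tested was called either. The slopes of RSM19, MRPL31 and MRPL40 became -0.07, -0.06 and -0.00, and those of MRPL39 and MRP21 0.16 and 0.06. RSM7 and MRPL15 kept slopes of -0.17 and -0.16. Without unstressed x100 replicate 1 or replicate 2 there were 2 rising members, and without oxidative x100 replicate 2 there were 3. Over all genes, 133, 134 and 154 rose in these fits.

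MRPL39, which encodes bL33m, had 158, 171, 224, 185, 159 and 225 RPKM in oxidative cells without drug and at x1/64 to x8, and 243 and 308 RPKM at x100. In unstressed cells it had 61.6, 47.9, 99.4, 134, 81.7 and 104 RPKM without drug and at x1/64 to x8, and 159 and 144 RPKM at x100. The x100 libraries were the highest in both series. Across the 66 genes, the slope with dose had a Spearman correlation of -0.50 with gene length, and of -0.19 across all genes, given as a description with no test. No member was called for a difference in dose slope between oxidative and unstressed cells (limma, lowest adjusted p among members 0.891). The same held for all 4371 genes tested, with 0.00% called. The members' differences of slope had a median of -0.08 and standard errors of 0.05 to 0.16. At an unadjusted threshold of 0.05, 2 members and 229 genes passed. The largest differences of slope among the members, oxidative minus unstressed, were 0.16 for MRP8, 0.06 for MRPL28 and 0.04 for MRPL25 upward. Downward they were -0.31 for RSM19, -0.22 for MRPL37 and -0.21 for RSM24.

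The following comparisons set single libraries against each other, so they have no replicate check and no test. A change of at least 1 on the log2 scale, or 2-fold, is counted. Ratios of single genes carry 95% intervals that cover counting error only.

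Without drug, oxidative cells over unstressed cells gave 63 of 67 members at least 2-fold higher, against 39.8% of all genes, and 0 at least 2-fold lower, against 13.2%. Comparing x100 with no drug in oxidative cells, 0 members were 2-fold higher (4.43% of all genes) and 0 were 2-fold lower (2.19%). The same comparison in unstressed cells gave 4 members 2-fold higher (1.04%) and 0 lower (0.710%). There, MRPL39 averaged 151 RPKM at x100 and 61.6 RPKM without drug, MRPL33 (uL30m) 91.8 and 41.6 RPKM, and MRPL31 (mL60) 117 and 55.1 RPKM. The fourth was RSM27 (mS33), with a log2 change of 1.01. The members' median log2 change with x100 was -0.08 in oxidative cells and 0.41 in unstressed cells. After centring these medians were 0.04 in oxidative cells and 0.33 in unstressed cells. The primer sets differed within both comparisons, and so did the handling of the cells described above for x100.

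In heat shock the members' median was close to that of all genes. Without drug, their median was 0.08 on the log2 scale, with 36 genes higher and 31 lower, against -0.03 for all genes. At least 2-fold changes were 2 up (19.9% of all genes) and 1 down (23.7%). The 2 up were MRP8, with 867 RPKM in heat shock and 116 RPKM in unstressed cells, and MRP10, with 140 and 69.2 RPKM (ratio 2.02, 1.59 to 2.54). The 1 down was MRPL15, with 15.1 RPKM in heat shock and 31.4 RPKM in unstressed cells (ratio 0.481, 0.332 to 0.676). Over the same libraries 0 of the 95 cytosolic ribosomal protein rows were higher, with a median of -3.63. The respiratory chain genes had a median of 0.91, with 31 of 35 higher.

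At x1, the members' median in heat shock over unstressed was -0.53, against -0.50 for all genes. Here 1 member was 2-fold higher (15.9% of all genes) and 12 were 2-fold lower (35.7%). MRP8 had 825 RPKM in heat shock and 149 RPKM in unstressed cells. RSM26 had 14.6 and 44.4 RPKM (ratio 0.328, 0.217 to 0.481), MRPL8 (bL17m) 17.7 and 50.9 RPKM, and RSM25 (mS23) 11.3 and 32.6 RPKM. These low values rested on 23 to 32 reads in the heat shock library. After centring the members' median was -0.01. Heat shock and unstressed libraries were made with different primer sets in both comparisons, and only the heat-shocked cells are described as moved to new medium. The parts of primer set and transfer in these comparisons were not tested.

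Without amino acids, 19 of 67 members were at least 2-fold higher than in complete SD (48.9% of all genes) and 0 were 2-fold lower (13.7%). The members' median log2 change was 0.69, below that of all genes at 0.97, and after centring it was -0.27. The SD among the 66 genes was 0.64, and for oxidative over unstressed cells without drug it was 0.26. The further mitochondrial ribosomal proteins had a median of 0.78, the respiratory chain genes 1.21 and the cytosolic ribosomal proteins -2.95. MRP49 (mL61) had 259 RPKM without amino acids and 49.9 RPKM in complete SD (ratio 5.19, 4.12 to 6.53). MRPL32, or bL32m, whose precursor is cut by the m-AAA protease before it joins the ribosome, had 127 and 34.4 RPKM (ratio 3.68, 2.85 to 4.74). At the other end, MRPL8 had 31.2 RPKM without amino acids and 54.8 RPKM in complete SD (ratio 0.570, 0.395 to 0.803). MRPL50 (bL9m) had 35.8 and 61.5 RPKM on 22 and 191 reads, and MRPL37 (mL54) 52.6 and 81.3 RPKM, with an interval that includes 1. The transfer to new medium and the loss of amino acids and other supplements cannot be told apart in comparisons with complete SD.

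With histidine, methionine and leucine in the medium, 12 members were at least 2-fold higher than in complete SD (29.3% of all genes) and 0 were 2-fold lower (11.7%). The members' median was 0.63, against 0.56 for all genes, and the SD among the 66 genes was 0.40. MRP8 had 1060 RPKM in the supplemented medium and 223 RPKM in complete SD. RSM18 had 235 and 85.1 RPKM (ratio 2.76, 2.36 to 3.23), and MRP20 (uL23m, at the exit tunnel) 70.9 and 27.1 RPKM (ratio 2.62, 2.16 to 3.17). MRPL8 was again lower, with 40.6 and 54.8 RPKM (ratio 0.742, 0.605 to 0.906).

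Setting the supplemented medium over the medium without amino acids, 2 members were at least 2-fold higher (7.11% of all genes) and 5 were 2-fold lower (20.9%). MRPL50 had 91.0 RPKM with the 3 amino acids and 35.8 RPKM without (ratio 2.54, 1.62 to 4.17), and MRP21 (bS21m) had 105 and 44.4 RPKM (ratio 2.36, 1.67 to 3.43). MRP49 had 111 RPKM with the 3 amino acids and 259 RPKM without, MRPL32 56.2 and 127 RPKM, and MRPL4 (uL29m) 36.9 and 76.3 RPKM. The other 2 were MRPS16 (bS16m) and MRPL3 (mL44), with log2 changes of -1.02 and -1.0. The members' median was -0.08 and turned to 0.36 after centring. The supplemented library had another primer set than the other SD libraries.

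Of the 67 members, 1 differed 2-fold with the growth medium or the initiation inhibitors. In complete SD over YPD, 0 members were 2-fold higher (5.09% of all genes) and 0 were 2-fold lower (1.19%), with a median of 0.28 against 0.16 for all genes. MRPL33 had 83.2 RPKM in SD and 41.6 RPKM in YPD (ratio 2.00, 1.58 to 2.51, and 0.98 on the log2(RPKM + 1) scale by which changes are counted). With edeine, 0 were 2-fold higher (0.951%) and 0 were 2-fold lower (0.652%), and the median was 0.01. MRPS5 (uS5m) was the furthest below, with 16.7 RPKM with edeine and 31.3 RPKM without (ratio 0.532, 0.368 to 0.747). With aurintricarboxylic acid, 1 member was 2-fold higher (1.58%) and 0 were 2-fold lower (1.79%), but 65 of 67 were above 0, with a median of 0.53 against 0.16 for all genes. MRP35 had 112 RPKM with the inhibitor and 51.3 RPKM without (ratio 2.17, 1.81 to 2.60), MRPL32 61.5 and 31.5 RPKM, and RSM22 9.35 and 10.2 RPKM (ratio 0.918, 0.743 to 1.12). In this comparison the change had a Spearman correlation of -0.45 with length among the 66 genes and of -0.40 among all genes. The aurintricarboxylic acid sample was also digested after the gradient instead of before it, so the inhibitor and the handling cannot be told apart.

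**Figure D5:**
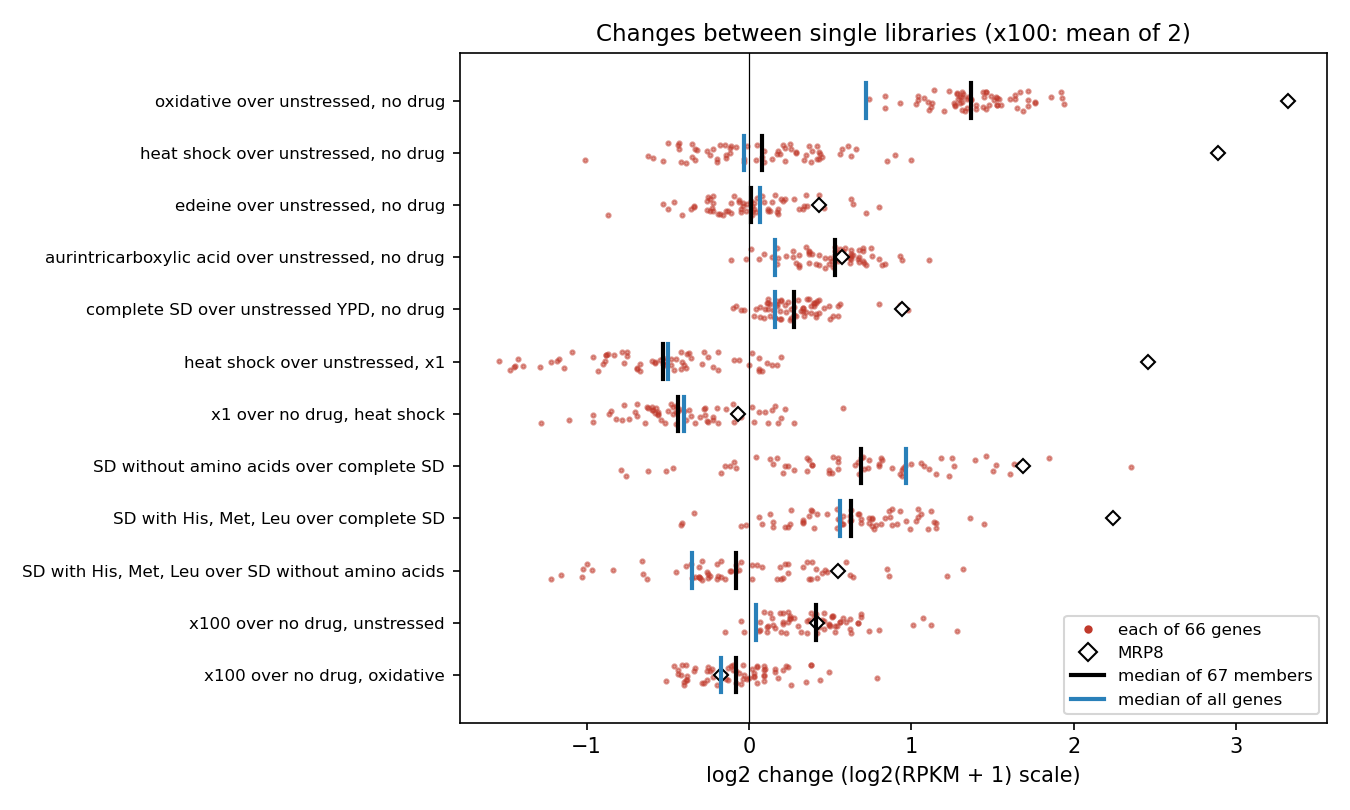
Log2 change of each member between single libraries (log2(RPKM + 1) scale; x100 is the mean of 2); dots are the 66 genes, diamonds MRP8, black bars the median of the 67 members and blue bars the median of all genes. The members lie close together and above the general median in oxidative cells (median 1.37 against 0.72), and around it in heat shock. Of the comparisons shown, that without amino acids has the largest SD among the 66 genes, MRP8 left out (0.64), and with MRP8 the range is wider in heat shock (-1.01 to 2.89 without drug) than there (-0.79 to 2.35).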

How the data were processed

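The authors aligned footprints to the S288C genome with Bowtie 0.12.7 and deposited a table of RPKM values, 1 column per library. The annotation release and the counting step are not given in the sources used here. The small subunit sample and the deposited occupancy profiles were not used. Members and gene lists were chosen with earlier results of these data known. Names and lengths came from the RefSeq table of assembly R64, which was not taken to be the authors' build; 5446 of 5448 single locus tags matched, and 116 rows join several tags. Sequences were not analysed here.

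The deposited RPKM values were put on the log2(RPKM + 1) scale and tested two-sided with limma 3.58.1 (R 4.3.3). Genes averaging under 10 RPKM were left out, p-values were adjusted by Benjamini-Hochberg and the threshold was 0.05. A log2 change on this scale understates that of low genes. Single libraries were compared without a test, and all 67 members were counted there, whether or not they passed the filter (66 or 67 passed). Depth was recovered from the RPKM steps: in each library 95.5 to 99.3% of the low values lay within 0.1 of a whole read. The depth and limma steps were tested on simulated data. Intervals are 95% exact binomial intervals of recovered reads. Named genes were taken from the 5 highest and lowest by median RPKM, the 5 largest changes in each direction past the threshold, the 3 largest per single-library comparison, and MRP8 and PUF3. Those that overlapped between groups, exceptions and examples from lists were named after their values were seen. Alternatives were pseudocounts of 0.1 and 10, no filter or 30 RPKM, centring, primer set terms, left-out doses and replicates, and a replicate block. Scaling outside cytosolic ribosomal proteins and leaving out x1/64 were chosen after seeing the data. Other steps used pandas 2.3.3 with numpy 2.4.6, scipy 1.17.1 and matplotlib 3.10.9 in Python 3.11.15.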

Additional observations from a re-analysis of the deposited data

Results flagged for a closer look

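The members' median change with x1 cycloheximide differed in sign between conditions, and the median of all genes differed between conditions as well. The median log2 change of x1 over no drug was -0.12 in oxidative cells and -0.44 in heat-shocked cells, and 0.28 in unstressed cells. The medians of all genes were -0.22 in oxidative cells, -0.40 in heat-shocked cells and 0.01 in unstressed cells. Of the 67 members, 47, 32 and 59 lay above these medians in this order. Each value rests on 1 library per condition, and the difference was not tested. The 2 oxidative libraries were made with different primer sets, the others with the same set within each condition. The oxidative and unstressed values were added after the data were seen. With centring the heat shock median was -0.08.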

How the results depend on the processing

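Under oxidative stress with dose as a block, 66 or 67 members were called higher under all alternatives run. The count was 66 at a filter of 30 RPKM, which RSM22 did not pass. Over all genes, 1611 of 2669 were higher at that filter, 1808 of 4352 with centring and 3491 of 5564 without a filter. At x100 the count was 40 with centring, 52 with scaling outside cytosolic ribosomal proteins and 64 without a filter (over all genes 1297, 1468 and 2922). It was 60 to 67 when 1 library was left out (over all genes 1923 to 2198). Replicate numbers at x100 share only a number, with 2 pairs: their deviations correlated at 0.436 over 4101 genes. With a replicate block 67 members were called higher (over all genes 2348). The trend with dose depended on the settings. The 5 rising members became 3 at a filter of 30 RPKM and 19 with centring (over all genes 154 and 534). They became 3 with scaling outside cytosolic ribosomal proteins and 1 without the primer set term (over all genes 138 and 121). Without x100 there were 0 (over all genes 30). Without x1/64 or in primer set 1 alone there were 0 rising members and 0 rising genes. Leaving out 1 library of the x100 pairs gave 2 to 5 (over all genes 133 to 176). The 2 falling members became 0 with centring and 4 without the primer set term (over all genes 458 and 1087). They became 6 with scaling outside cytosolic ribosomal proteins and 0 in primer set 2 alone (over all genes 1256 and 273). In primer set 1 alone or without x1/64 there were 0 falling members and 0 falling genes. In primer set 1 alone the slopes were -0.07 (RSM19), -0.28 (MRPL31), -0.09 (MRPL39), -0.15 (MRPL40) and -0.14 (MRP21), and without x1/64 they were -0.07 (RSM19), -0.06 (MRPL31) and -0.00 (MRPL40). The cause of these changes was not tested.

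With a pseudocount of 10, medians of single-library comparisons were 1.21 (oxidative, no drug), 0.44 (aurintricarboxylic acid), -0.41 (heat shock, x1), -0.31 (x1 over no drug, heat shock) and 0.58 (without amino acids). With centring they were 0.70 (oxidative, no drug), 0.38 (aurintricarboxylic acid), 0.06 (complete SD over YPD), -0.01 (heat shock, x1), -0.08 (x1 over no drug, heat shock), -0.27 (without amino acids), 0.15 (supplemented over complete SD), 0.36 (supplemented over no amino acids) and 0.04 (x100, oxidative). In the shallow libraries some values rest on few reads, such as the 14 reads of MRPS16 in heat shock at x1.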
